A study of Mus musculus with 6 samples.

Results

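The genes of the GDNF ligand and receptor family were followed in mixed neuron-glial cultures of mouse brain exposed to the hormonally active form of vitamin D. The 8 members are the ligands Gdnf, Nrtn and Artn, the co-receptors Gfra1, Gfra2 and Gfra3, and the signalling receptors Ret and Ncam1. They were chosen by name, with earlier results of these data known. Each had exactly 1 row with a single gene symbol, so 8 of the 19938 genes tested are described. The treated group (1,25D) consisted of 3 cultures that received 10 nM 1,25-dihydroxyvitamin D3 and the control group of 3 cultures that received vehicle. All 6 were primary cultures from the brain of OF1 embryos at embryonic day 17, which had differentiated in fetal calf serum and were switched to serum-free medium without growth factors for the exposure. Strain, tissue and culture were labelled alike in both groups. The labels call the samples biological replicates without saying whether they came from separate litters, so the p-values below reflect only how far these particular cultures differ, which may be technical.

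Gdnf, neurturin (Nrtn) and artemin (Artn) are secreted dimers that first bind a lipid-anchored co-receptor, for which each has a preference: Gdnf for Gfra1, neurturin for Gfra2 and artemin for Gfra3. The ligand and co-receptor then recruit the receptor tyrosine kinase Ret, which signals through adaptors to the MAP kinase and PI3 kinase pathways. Gdnf bound to Gfra1 can also signal through the cell adhesion molecule Ncam1 in cells without Ret. In the brain the system is best known for the maintenance of midbrain dopaminergic and motor neurons.

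Values are log2 of the deposited intensity unless an intensity is named. Intensities of different genes on an array do not compare their amounts, and RMA gives no call of presence. The lower quartile of genes lay between 6.69 and 6.86 and the median between 7.91 and 7.98 on the 6 arrays. By their mean over the arrays, Artn, Gdnf, Gfra3 and Ret lay below the median gene, where differences are compressed, and Ncam1 and Gfra1 lay in the brightest quartile. S100g, an intracellular calcium binder that the vitamin D receptor induces in gut, averaged 8.82 ± 0.15 in 1,25D and 7.25 ± 0.20 in control cultures (SD, n = 3 each, limma adjusted p = 0.022). Vdr, the vitamin D receptor, averaged 8.85 ± 0.67 in 1,25D and 7.10 ± 0.16 in control cultures (adjusted p = 0.38 without and 0.052 with the replicate number as a block). Arrays of equal replicate number resembled each other, and the members are therefore also shown by pair. For other genes pair differences are given only in part.

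None of the 8 members passed the test over all genes (limma, Benjamini-Hochberg adjusted p under 0.05), either without the block, where 0.0251% of all genes passed, or with it, where 0.0903% passed. At an unadjusted p under 0.05 there was 1 member without the block (Gfra1; 1.48% of all genes) and there were 2 with it (Gfra1 and Gfra2; 5.78% of all genes). The member that differed most was Gfra1, with a mean 1.48-fold that of controls. Gfra2 had a lower value in the treated culture of every pair. In all, 3 members (Gfra1, Gfra2 and Gdnf) differed in the same direction in the 3 pairs, as did 25.8% of all genes. The ligands, Gfra3, Ret and Ncam1 had mean differences between -0.06 and 0.11, each smaller than its standard error without the block. The median difference of the 8 was 0.06, against 0.01 over all genes.

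**Figure D1:**
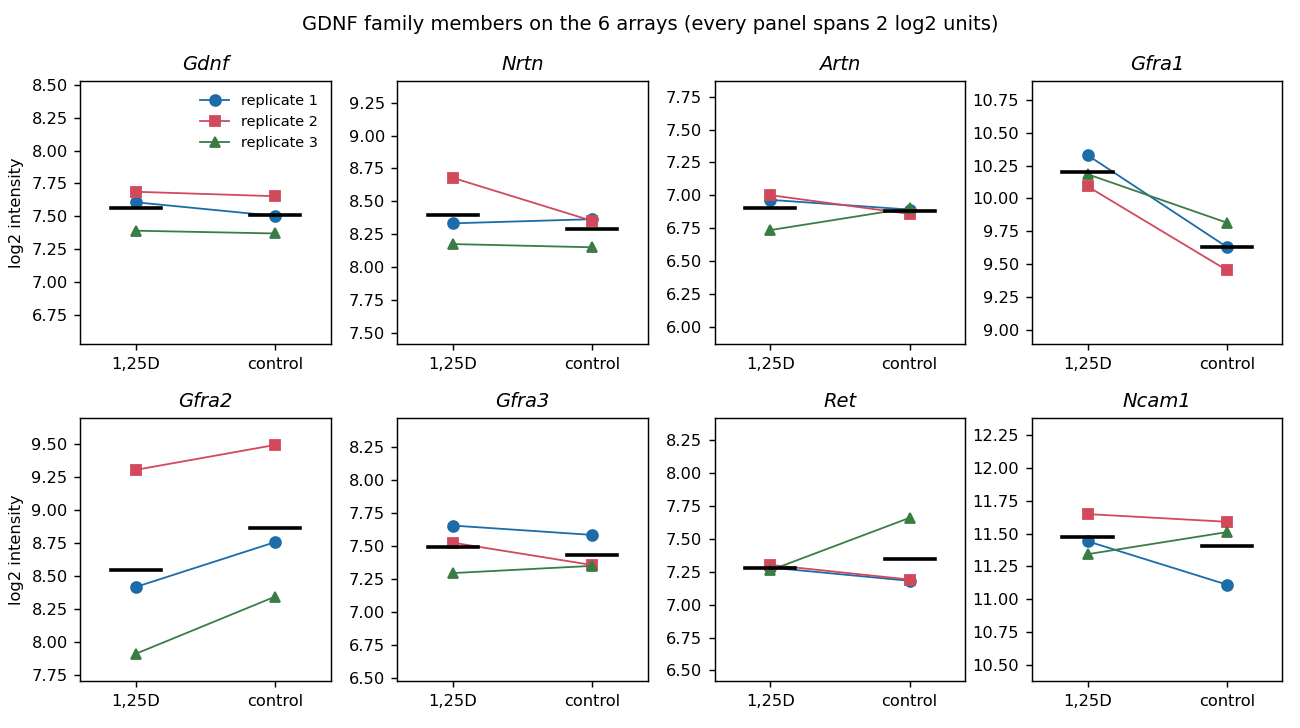
Log2 intensity of each member on the 6 arrays, with 1,25D on the left and control on the right of each panel. Lines join equal replicate numbers, black bars are group means (n = 3 each), and every panel spans 2 log2 units. The 3 Gfra1 values in 1,25D, from 10.09 to 10.33, all lie above those in control, from 9.46 to 9.82, whereas Gfra2 is spread over 1.59 with all 3 lines sloping the same way.

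Gfra1 encodes the co-receptor that binds Gdnf itself. Its intensity was 1286, 1091 and 1164 in 1,25D replicates 1, 2 and 3, against 794, 702 and 902 in control replicates 1, 2 and 3. All treated cultures were thus above all control cultures, a separation without overlap shared by 4.15% of all genes, and by 2.63% in the upward direction. The log2 mean was 10.20 ± 0.12 in 1,25D and 9.63 ± 0.18 in control cultures (SD, n = 3 each), a difference of 0.57 ± 0.12 (SE, 95% interval 0.28 to 0.85). Ordered by unadjusted p, Gfra1 stood at place 38 of the 19938 genes without the block and at place 57 with it, but its limma adjusted p was 1.00 and 0.22. In an exact two-sided permutation test of this gene alone p was 0.1, the smallest that 3 arrays against 3 can give. Any gene whose groups do not overlap gets this value, so it adds nothing to the separation. The difference was 0.70, 0.64 and 0.37 in pairs 1, 2 and 3, so the smallest was that of pair 3, whose control was the brightest of the controls. It lay between 0.48 and 0.66 when any 1 of the 6 arrays was left out.

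In these bulk cultures more cells of a type and more RNA per cell cannot be told apart. Of 6 markers of meningeal fibroblasts none passed, and 5 had a difference above 0 (list median 0.06). Their summed intensity lay between 1900 and 2388 in 1,25D and between 1768 and 1861 in control cultures. The largest differences were those of Col1a1, a chain of type I collagen, and Pdgfrb, a receptor of mural and fibroblast-like cells. Both also had the highest means of the list (9.75 and 9.29 in 1,25D, with Col1a2 next at 8.42). They therefore weigh most in the sum, which does not describe the list as a whole. The Pdgfrb groups overlapped. Pdgfrb was picked out after its values were seen. The difference was 0.42 ± 0.18 for Col1a1 and 0.48 ± 0.20 for Pdgfrb (SE). The limma adjusted p was 1.00 for both without the block, and with it 0.67 for Col1a1 and 0.23 for Pdgfrb. Ordered by unadjusted p with the block, Pdgfrb stood at place 64 of all genes. The other 4, Col1a2 at -0.04 ± 0.12 (SE) among them, lay between -0.04 and 0.06. Microglia markers had 7 of 8 differences above 0 (median 0.11) with summed intensities of 1063 to 1335 in 1,25D and 963 to 1157 in control cultures, which overlapped. GABAergic markers likewise had 7 of 8 above 0 (median 0.08), with sums of 1575 to 2357 in 1,25D and 1556 to 2176 in control cultures. Motor neuron markers had 3 of 5 above 0 (median 0.09), dopaminergic markers 5 of 8 (median 0.02), and Schwann cell and peripheral neuron markers 3 of 5 (median 0.005). Over all genes 10563 of 19938 differences lay above 0 (median 0.007), so these last lists lay near that share. The lists named here are those that ran mostly in the direction of Gfra1, and astrocyte, neuron, oligodendrocyte and progenitor markers ran mostly the other way. By pair, only the GABAergic and motor neuron medians lay above 0 in every pair. In pair 3 the median was -0.06 for fibroblast, -0.009 for microglia, -0.03 for dopaminergic and -0.02 for Schwann cell markers. The part of any of these cells in the Gfra1 difference was not tested.

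The Gfra1 promoter is shown because Gfra1 was the member whose groups separated, and because the vitamin D receptor binds DNA as a partner of RXR at paired hexamers. In RefSeq (GRCm38.p6) the 250 bases before its start lie at chr19:58455399-58455648 on the minus strand. Capitals mark the match to a hexamer of the receptor's element.
Gfra1: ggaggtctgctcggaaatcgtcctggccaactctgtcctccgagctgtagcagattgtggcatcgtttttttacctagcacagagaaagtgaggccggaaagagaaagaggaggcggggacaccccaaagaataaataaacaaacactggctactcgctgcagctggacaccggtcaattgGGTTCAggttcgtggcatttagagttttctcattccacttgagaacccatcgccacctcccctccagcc

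The hexamer AGGTCA, its form AGTTCA, and the forms that begin with G, which are GGTTCA and the related GGGTCA, were searched on both strands in the 250 bases before each of 32851 RefSeq starts. Gfra1 held 1 match, GGTTCA on the gene's own strand, whose first base lies 69 bases before the start. Such a match is common, since 38.6% of all windows held at least 1 of the 4 hexamers and 8.85% held GGTTCA. Of the members, 4 had a promoter entry (Gdnf with 2 starts). Artn held GGTTCA on the opposite strand, 1 of the 2 Gdnf windows held AGGTCA on its own strand, and the other Gdnf window and the Nrtn window held none. A direct repeat of 2 of these hexamers in the same orientation with 3 bases between, the classical form of the element, stood in 13 of all windows (0.0396%) and in none of the 5 windows of members. These are letter matches and say nothing of binding.

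Gfra2 encodes the co-receptor that prefers neurturin. Its intensity was 342, 633 and 240 in 1,25D replicates 1, 2 and 3, against 433, 722 and 325 in control replicates 1, 2 and 3. Replicate 2 was the highest and replicate 3 the lowest in both groups, and the groups overlapped widely. The means were 8.54 ± 0.71 in 1,25D and 8.87 ± 0.58 in control cultures (SD, n = 3 each), and the difference of -0.32 had a standard error of 0.39 without the block (95% interval -1.23 to 0.59, limma adjusted p = 1.00). Within pairs the difference was -0.34, -0.19 and -0.43, which narrowed the standard error to 0.083 with the block (95% interval -0.52 to -0.12). Gfra2 then stood at place 235 of all genes by unadjusted p, with a limma adjusted p of 0.62. A lower value in all 3 pairs was found for 11% of all genes.

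The range of Gfra2 over the 6 arrays, 1.59, exceeded that of 99.1% of all genes, and its standard error was 4.69 times as large without the block as with it, against a median of 1.37 over all genes. For the other 7 members that ratio lay between 1.16 and 1.62. The block left the difference itself at -0.32, whereas leaving out single arrays moved it. The unblocked difference was -0.70 without 1,25D replicate 2 and -0.58 without control replicate 3, but -0.004 without 1,25D replicate 3 and -0.006 without control replicate 2. With 1 replicate number left out and the block kept, it lay between -0.39 and -0.26. All 8 astrocyte markers had a difference below 0 (median -0.08), as had 7 of the 8 neuron markers (median -0.06), and none passed the test. So had 5 of 7 oligodendrocyte lineage markers (median -0.08) and 5 of 6 progenitor markers (median -0.03). Over all genes 9375 of 19938 differences lay below 0 (median 0.007). The lists named here are those that ran mostly in the direction of Gfra2. By pair, only the oligodendrocyte median lay below 0 in every pair. The neuron and progenitor medians were 0.08 and 0.12 in pair 3, where Gfra2 differed most, and the astrocyte median was 0.02 in pair 2. Fibroblast, microglia, dopaminergic, GABAergic, motor neuron and Schwann cell lists had medians above 0, and the endothelial median was -0.01. Summed intensities overlapped between 1,25D (28752 to 38417 for astrocyte and 2942 to 4510 for neuron markers) and control cultures (29342 to 38285 and 3610 to 4675). The part of any of these cells in the Gfra2 values was not tested.

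**Figure D2:**
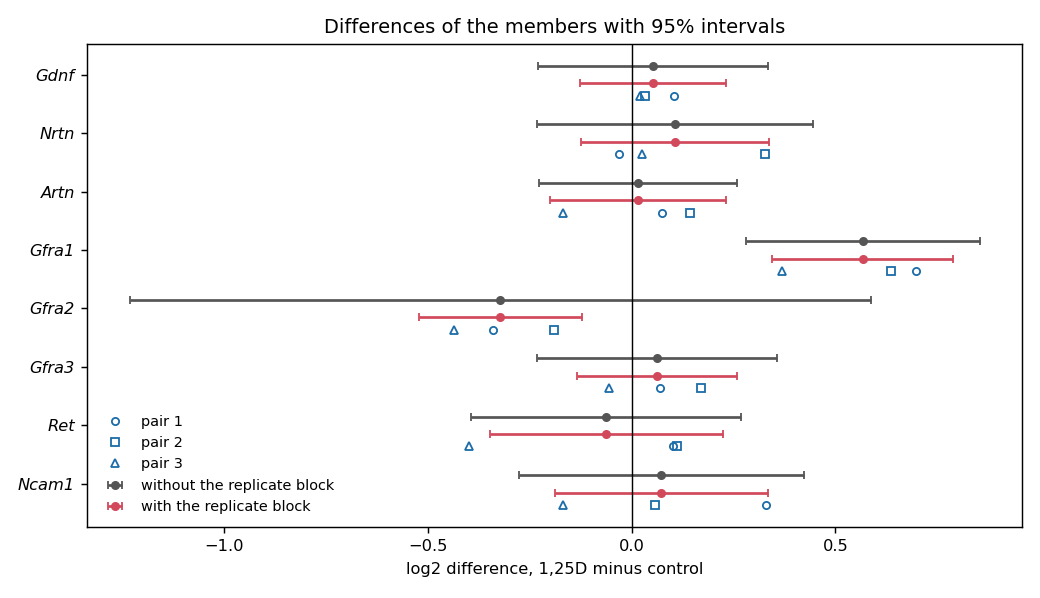
Log2 difference, 1,25D minus control, of each member with its 95% interval from limma without and with the replicate number as a block, and the differences of the 3 pairs. The Gfra1 intervals lie above 0 in both fits, the Gfra2 interval lies below 0 only with the block, and the intervals of the other 6 members span 0 in both fits. Each interval is for 1 gene and is not adjusted for the number of genes tested, and no member passed the test over all genes.

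Gfra3, the artemin co-receptor, had 7.66, 7.53 and 7.30 in 1,25D replicates 1, 2 and 3, against 7.59, 7.36 and 7.35 in control replicates 1, 2 and 3. The groups overlapped, and the difference of 0.06 ± 0.13 (SE) had a 95% interval of -0.23 to 0.36. It was positive in pairs 1 and 2 (0.07 and 0.17) and negative in pair 3 (-0.05).

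Among the ligands, Gdnf had 7.61, 7.69 and 7.39 in 1,25D replicates 1, 2 and 3, against 7.50, 7.65 and 7.37 in control replicates 1, 2 and 3. Replicate 3 was the lowest in both groups. The difference was small but positive in every pair, at 0.10, 0.03 and 0.02, which 14.8% of all genes also showed, and its mean was 0.05 ± 0.12 (SE, 95% interval -0.23 to 0.33).
Nrtn had 8.33, 8.68 and 8.18 in 1,25D replicates 1, 2 and 3, against 8.36, 8.35 and 8.15 in control replicates 1, 2 and 3. One treated culture, replicate 2, stood above the rest, and the other pairs differed by -0.03 and 0.02. The mean difference was 0.11 ± 0.15 (SE, 95% interval -0.23 to 0.44).
Artn had 6.97, 7.001 and 6.74 in 1,25D replicates 1, 2 and 3, against 6.89, 6.86 and 6.90 in control replicates 1, 2 and 3. Its control values were close together (SD 0.023), the treated ones lay on both sides of them, and the difference was 0.02 ± 0.10 (SE, 95% interval -0.23 to 0.26). With arrays rescaled to equal medians or by quantiles the Artn difference was -0.0065 and -0.023. The intervals of the 3 ligands together spanned -0.23 to 0.44.

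Ret, the kinase shared by all co-receptors, had 7.28, 7.30 and 7.26 in 1,25D replicates 1, 2 and 3, against 7.18, 7.19 and 7.66 in control replicates 1, 2 and 3. Control replicate 3 alone stood apart. Its pair gave a difference of -0.40, whereas pairs 1 and 2 gave 0.10 and 0.11. The mean difference of -0.06 ± 0.14 (SE, 95% interval -0.39 to 0.27) turned to 0.10 without control replicate 3. Ncam1, the brightest row of the family, had 11.44, 11.65 and 11.34 in 1,25D replicates 1, 2 and 3, against 11.11, 11.59 and 11.51 in control replicates 1, 2 and 3. The groups overlapped, the pairs gave 0.33, 0.06 and -0.17, and the mean difference was 0.07 ± 0.15 (SE, 95% interval -0.28 to 0.42). It was -0.07 without control replicate 1.

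Several further genes belong to the system, and of 10 such co-receptors, ligands and regulators measured, 0 passed in either direction in either fit, with a median difference of -0.01. Persephin (Pspn), the remaining ligand of the family, had a difference of 0.02 ± 0.10, its co-receptor Gfra4 of -0.01 ± 0.10, and Gfral, the receptor chain for GDF15, of -0.07 ± 0.11 (SE). Gas1, a membrane protein related to the co-receptors that binds Ret, averaged 10.13 ± 0.49 in 1,25D and 9.97 ± 0.41 in control cultures (SD, n = 3 each), and its pair differences of -0.33, 0.26 and 0.55 had no common direction. Lrig1, an inhibitor of Ret signalling, had a difference of -0.25 ± 0.17 (SE) that came from pair 3 (-0.79), since pairs 1 and 2 gave 0.02 and 0.03. The proteoglycan Sdc3, which binds GDNF, and Sorl1, a sorting receptor for GDNF and its co-receptor, had differences of -0.02 ± 0.17 and 0.06 ± 0.25 (SE). Ncam2, the paralog of Ncam1, had -0.11 ± 0.16 (SE). The enzymes that add polysialic acid to Ncam1 had differences of -0.24 ± 0.27 (St8sia2) and 0.02 ± 0.10 (St8sia4, SE), and the St8sia2 pairs ran from -0.86 to 0.32.

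Downstream of the receptors, 0 of 22 measured adaptors and effectors of Ret and Ncam1 passed in either direction, with a median of -0.01 and values from -0.43 to 0.24. The adaptors Shc1 and Grb2 had differences of -0.08 ± 0.13 and 0.01 ± 0.10, and the docking proteins Gab1 and Gab2 of -0.19 ± 0.10 and -0.08 ± 0.14 (SE). The groups did not overlap for 2 of the 22 (4.15% of all genes), Gab1, which was lower in 1,25D, and Plcg1, which was higher. Plcg1, the phospholipase recruited by Ret, was picked out after its values were seen. It averaged 9.57 ± 0.09 in 1,25D and 9.33 ± 0.13 in control cultures (SD, n = 3 each, limma adjusted p = 1.00 without and 0.86 with the block).

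Of 14 measured targets and feedback genes of Ret signalling 0 passed, with a median of 0.02. Etv4 and Etv5, ETS factors that Ret signalling induces in the kidney bud of the mouse, had differences of 0.21 ± 0.14 and 0.10 ± 0.31 (SE). Etv4 was above 0 in all pairs (0.34, 0.24 and 0.06), while Etv5 ran from 0.77 in pair 1 to -0.41 in pair 3. The feedback inhibitors Spry1 and Spry2 had differences of 0.03 ± 0.13 and -0.09 ± 0.13 (SE). Over all 3 lists 2 of 46 genes had an unadjusted p under 0.05 with the block, Plcg1 and Etv4, against 5.78% of all genes.

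**Figure D3:**
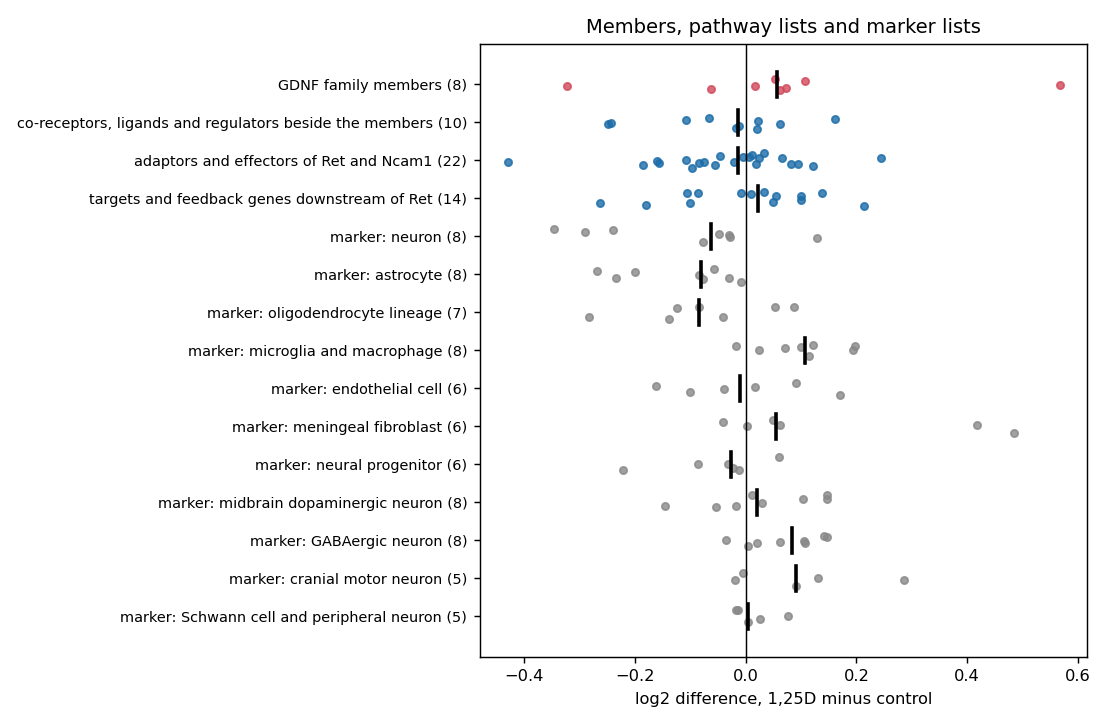
Log2 difference, 1,25D minus control, of every measured gene of the family (red), of the 3 pathway lists (blue) and of the marker lists (grey), with the number measured in brackets and the list median as a black bar. Gfra1 at 0.57 lies to the right of all pathway and marker genes shown, and none of the genes shown passed the test over all genes.

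Markers of the cells that such cultures could hold gave 0 calls among 75 measured genes in either fit. The neuron markers Tubb3 and Map2 had differences of -0.05 ± 0.29 and -0.29 ± 0.25, and the astrocyte markers Gfap and Aqp4 of -0.08 ± 0.31 and -0.23 ± 0.27 (SE). Rbfox3, which encodes the neuronal protein NeuN, was lower in 1,25D without overlap of the groups, at 7.42 ± 0.15 in 1,25D and 7.76 ± 0.21 in control cultures (SD, n = 3 each, limma adjusted p = 1.00 without and 0.50 with the block). The groups did not overlap for 5 of the 75 markers, against 4.15% of all genes. These were Rbfox3, which was lower in 1,25D, and Col1a1, Cx3cr1 of the microglia list, En1 of the dopaminergic list and Slc18a3, which were higher. Rbfox3, Cx3cr1, En1 and Slc18a3 were picked out after their values were seen. Among neurons in which Ret is best known, the dopaminergic markers Th and Slc6a3 averaged 7.38 and 7.58 in 1,25D and 7.44 and 7.60 in control cultures. Of 8 such markers 5 had a difference above 0, as had 10563 of all 19938 genes. The motor neuron markers Chat and Isl1 averaged 6.58 and 6.72 in 1,25D and 6.60 and 6.72 in control cultures. Slc18a3, the vesicular acetylcholine transporter, also of the motor neuron list, had groups without overlap and averaged 7.64 ± 0.12 in 1,25D and 7.36 ± 0.12 in control cultures (SD, n = 3 each, limma adjusted p = 1.00 without and 0.65 with the block). The GABAergic markers Gad1 and Gad2 had differences of 0.15 ± 0.23 and -0.03 ± 0.26 (SE). For the oligodendrocyte lineage Pdgfra and Cspg4 had -0.04 ± 0.39 and -0.12 ± 0.16, for microglia Aif1 and Itgam had 0.12 ± 0.10 and 0.02 ± 0.14, and for endothelial cells Pecam1 and Cdh5 had -0.04 ± 0.13 and 0.17 ± 0.10 (SE). The progenitor markers Nes and Sox2 had -0.09 ± 0.36 and -0.02 ± 0.11, and the Schwann cell and peripheral neuron markers Sox10 and Ngfr had 0.08 ± 0.10 and -0.01 ± 0.10 (SE). Of the markers named, Cdh5 and Th held identical values in both replicate 1 arrays, which fixes their pair 1 difference at 0. No member did.

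Genes whose pattern over the 6 arrays was most like that of a member are given as a description. Among 6459 genes with a range of at least 0.5, Psg29 (r = 0.99), Ly75 (0.99), Galnt7 (0.99), Vegfc (0.98) and Kcne4 (0.98) had the highest Pearson correlation with Gfra1, and their own differences lay between 0.31 and 0.57. The shared step between the groups enters each of these values, and with 6 arrays and so many genes high values arise readily. For Ret, whose pattern is that of a single high control, they were Hes6, Mss51, Gm10825, Lox and 1700025G04Rik, with r between 0.98 and 0.99.

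**Figure D4:**
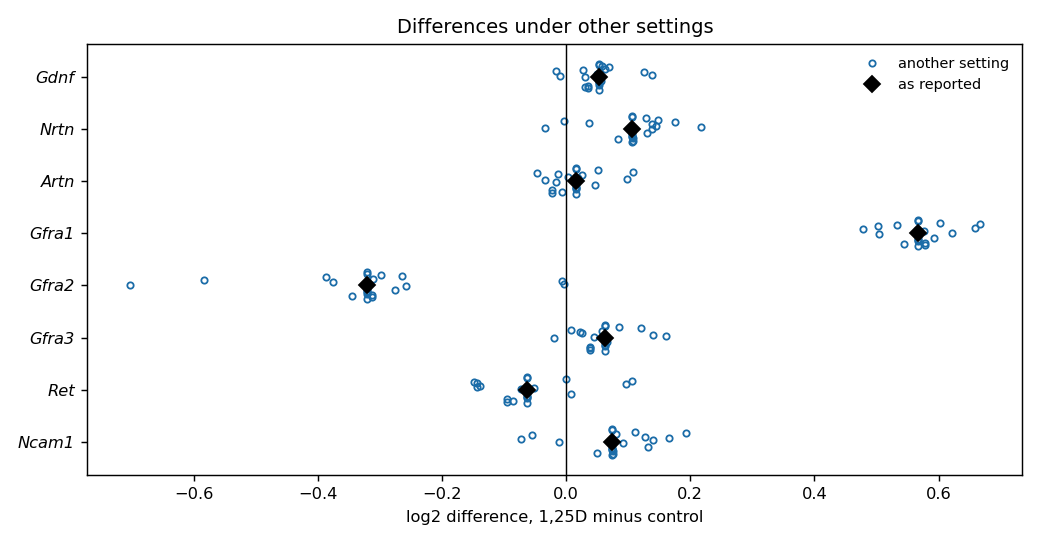
Log2 difference, 1,25D minus control, of each member as reported (diamond) and under 22 other settings (circles), among them each array left out, the replicate block and other normalisations. Gfra1 stays between 0.48 and 0.67, Gfra2 runs from -0.70 to -0.004, and the other 6 members lie on both sides of 0.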

How the data were processed

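Affymetrix arrays were hybridised with biotin-labelled cDNA from 200 ng of total RNA per culture. The authors deposited intensity values per transcript cluster on a linear scale, from 8.05 to 22019. The submitters' processing notes name RMA and Affymetrix Expression Console, and versions or filters are not given in the sources. Of 35556 rows, 21789 had 1 symbol in GEO's platform annotation, for 19938 genes. The brightest row was kept for each of the 999 genes with several rows. No build is named for the values.

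Log2 values of all genes were fitted with limma 3.58.1 in R 4.3.3 (lmFit, eBayes), 1,25D minus control, and p-values adjusted by Benjamini-Hochberg over all genes at a threshold of 0.05. The fit was also run on simulated data drawn from its own variance model, which cannot show whether that model suits these arrays. For arrays the number of replicates limits the precision. Deviations from the group means correlated at 0.51, 0.65 and 0.46 for equal replicate numbers 1, 2 and 3; the labels do not say that they mark pairs, but on these positive values they were treated as such. In the 2 arrays of replicate 1, 1514 rows held identical values.

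The members and lists were chosen with earlier results of these data known. Named genes were the members, all genes of the short list of co-receptors, ligands and regulators, the first 4 genes of both longer lists, the first 2 of each marker list, S100g, Vdr and the 5 genes most like Gfra1 and Ret. Pdgfrb, Plcg1, Rbfox3, Slc18a3, Cx3cr1 and En1 fall outside that rule. Of the 52 pathway genes listed, 6 lacked a row naming them alone and were not analysed here.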

Additional observations from a re-analysis of the deposited data

How the results depend on the processing

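Under 22 other settings no member and no pathway gene was called, including the fit with the replicate block (0 members and 0 pathway genes). Gfra1 kept its direction in all 22, with adjusted p-values (limma) between 0.066, with the block and without replicate 3, and 1.00. Gfra2 also kept its direction in all 22, but its difference was only -0.004 without 1,25D replicate 3 and -0.006 without control replicate 2. Small differences of the other members changed sign. Artn was -0.023 after quantile normalisation, without and with the replicate block, and -0.0065 after median centring, against 0.02 as reported, and Ret was 0.0075 with array weights, against -0.06. With 1 of the 6 arrays left out, differences ran from -0.017 to 0.14 for Gdnf, -0.035 to 0.22 for Nrtn, -0.034 to 0.10 for Artn, -0.020 to 0.16 for Gfra3, -0.14 to 0.10 for Ret and -0.073 to 0.17 for Ncam1. With 1 replicate number left out and the replicate block kept (2 pairs), they ran from -0.0035 to 0.18 for Nrtn, -0.047 to 0.11 for Artn, -0.15 to 0.11 for Ret and -0.055 to 0.19 for Ncam1. Without replicate 1 Artn was -0.012. The cause of these changes was not tested, for the omissions or for the normalisations and weights. Array weights with the block and the omission of genes with identical replicate 1 values were chosen after seeing the data. With 3 arrays a group, differences the size of those of the ligands could not be told from 0.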

Other observations

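The co-receptors of Gdnf and neurturin differed in opposite directions in each pair, a comparison chosen after the values were seen. The Gfra1 difference minus the Gfra2 difference was 1.04, 0.82 and 0.80 on the log2 scale in pairs 1, 2 and 3, with a mean of 0.89 ± 0.13 (SD, n = 3 pairs). That spread is within pairs, which the labels do not state, and the Gfra2 values overlapped between the groups. No test is given, since the 2 genes were picked for these opposite signs.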
